A study of Mus musculus with 74 samples.

Results

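The immediate early transcription factors described here are 10 genes, Fos, Fosb, Jun, Junb, Egr1, Atf3, Ier2, Nr4a1, Nr4a2 and Nr4a3, followed through the day in mouse fat. They were chosen by name, with earlier results of these data known, and found by symbol among 55487 genes of the RNA count table. The regions assigned to them by gene name in the deposited peak tables were 60 of 42572 accessible regions of brown adipocytes, 32 of 25050 accessible regions of inguinal white adipocytes, and 18 of 10368 regions bound by BMAL1, the DNA-binding partner of CLOCK in the circadian clock. Immediate early genes are transcribed within minutes of a stimulus, before any new protein is made, through factors already on their promoters such as SRF with its ELK partners and CREB. Most of their messengers are short-lived, and the proteins they encode then act on later genes: FOS and JUN proteins pair as AP-1, EGR1 binds GC-rich sites, and NR4A proteins are orphan nuclear receptors. In brown fat, noradrenaline acting through beta-adrenergic receptors and cyclic AMP is known to induce several of them, among them Nr4a1 and Fos.

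Brown fat (brown adipose tissue, BAT) and the white fat of the groin (inguinal, WAT) came from mice of the strain Adiponectin-Cre:NuTRAP, in which Cre driven by the Adiponectin promoter, active in adipocytes, switches on a GFP-tagged ribosomal protein and a tag on nuclei. RNA was pulled from minced tissue with an antibody to GFP, so it is RNA on tagged ribosomes, and accessible chromatin was measured by ATAC-seq on nuclei sorted by flow cytometry. Groups were ZT1, ZT5, ZT9, ZT13, ZT17 and ZT21, where ZT is the time in hours of the light cycle, in each depot. Every group had 3 libraries for each assay, except the RNA of BAT at ZT17 with 2, which gave 17 BAT and 18 WAT RNA libraries and 18 ATAC libraries per depot. The BMAL1 ChIP-seq had 2 libraries and 1 input, from inguinal white fat of C57BL6J mice at ZT4, and used whole minced tissue in place of sorted nuclei. All RNA and ATAC groups carried the same Cre and tag, and age, sex and diet were not given in the sources used here. Nothing in the labels said whether libraries of a group came from separate mice, so p-values measure only the spread between these libraries, which may be technical.

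The BAT libraries of RNA held 4980147 to 46274438 counts each, and those of WAT 1301522 to 6481154, so low genes were measured less precisely in WAT. Counts on ribosomal RNA loci made up 0.813% to 4.64% of BAT libraries and 5.26% to 66.0% of WAT libraries. Ucp1, the uncoupling protein of brown fat, had a median of 1418 counts per 1000000 (CPM) in BAT and 54.4 in WAT, and Adipoq, the adipocyte hormone adiponectin, was at 232 and 188. Macrophage markers summed to a median of 11.5 CPM (range 9.30 to 18.8) over 7 genes in BAT and to 144 (40.5 to 221) in WAT. The T cell receptor genes Cd3e and Cd3g were at a median of 0 in BAT. The macrophage markers were thus higher in the WAT libraries.

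A short sequence recurred in the promoters of the members. RefSeq promoter entries (GRCm38.p6) were found for 8 of the 10 members, Egr1 and Ier2 being those without, and the 250 bases before the start were searched on both strands. TGACG, the core of the cyclic AMP response element, stood in 7 of the 8, all but Jun, against 17.8% of all 32851 promoters of the same length. These windows were also rich in G and C, with a median of 65.8% against 52.4% over all promoters, which bears on how often a motif with CG is met. The following 5 upstream windows, 5′ to 3′ on the gene's strand, are shown for these reasons: the Junb window lies over the accessible and BMAL1-bound regions described further on, Fos, Atf3 and Nr4a2 show the motif 2, 1 and 4 times, and Jun lacks it. Capitals mark TGACG or, on the other strand, CGTCA. Junb lies at chr8:84978749-84978998 on the minus strand, Jun at chr4:95052223-95052472 on the minus strand, Fos at chr12:85473640-85473889 on the plus strand, Atf3 at chr1:191183334-191183583 on the minus strand and Nr4a2 at chr2:57124004-57124253 on the minus strand.
Junb: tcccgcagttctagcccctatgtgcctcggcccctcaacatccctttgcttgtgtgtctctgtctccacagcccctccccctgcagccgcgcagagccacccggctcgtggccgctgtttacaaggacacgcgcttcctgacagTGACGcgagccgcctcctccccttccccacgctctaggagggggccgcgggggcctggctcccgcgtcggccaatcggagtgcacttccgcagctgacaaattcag
Jun: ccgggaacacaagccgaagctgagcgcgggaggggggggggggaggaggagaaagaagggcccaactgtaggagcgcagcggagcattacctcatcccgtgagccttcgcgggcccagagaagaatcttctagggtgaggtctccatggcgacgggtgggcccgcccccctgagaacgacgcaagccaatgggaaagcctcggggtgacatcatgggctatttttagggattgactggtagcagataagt
Fos: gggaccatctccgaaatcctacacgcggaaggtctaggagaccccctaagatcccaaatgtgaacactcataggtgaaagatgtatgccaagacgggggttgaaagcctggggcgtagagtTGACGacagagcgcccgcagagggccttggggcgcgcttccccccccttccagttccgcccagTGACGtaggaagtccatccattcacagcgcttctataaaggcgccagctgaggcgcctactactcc
Atf3: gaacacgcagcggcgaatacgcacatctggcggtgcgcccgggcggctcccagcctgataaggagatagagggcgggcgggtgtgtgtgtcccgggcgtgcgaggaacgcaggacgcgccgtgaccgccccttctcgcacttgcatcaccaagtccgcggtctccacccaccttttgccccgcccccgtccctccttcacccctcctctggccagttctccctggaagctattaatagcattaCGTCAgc
Nr4a2: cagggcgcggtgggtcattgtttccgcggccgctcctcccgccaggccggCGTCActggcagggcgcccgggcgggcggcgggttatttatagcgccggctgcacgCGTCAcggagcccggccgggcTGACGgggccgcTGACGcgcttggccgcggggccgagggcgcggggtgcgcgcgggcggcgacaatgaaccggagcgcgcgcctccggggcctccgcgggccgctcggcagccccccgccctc

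Counting back from the base before the start as position -1, Junb had the core at -106 to -102, Fos at -129 to -125 and at -66 to -62, and Atf3 at -7 to -3. Nr4a2 had it 4 times, as did Nr4a1 and Nr4a3. The full palindrome TGACGTCA was in none of the 8 windows and in 1.55% of all promoters. Likewise none of the 8 held the AP-1 site TGACTCA (4.46% of all), the E-box CACGTG (6.02%), the EGR site GCGTGGGCG (0.536%), the NR4A site AAAGGTCA (1.34%) or the SRF site called the CArG box (1.47%). Bases farther from the start than these 250 were not searched, nor was any window of Egr1 or Ier2, so sites there are not excluded. A match is only a description of these letters.

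Compared per length, in the transcripts per 1000000 (TPM) of the authors' deposited tables, Ier2, Jun, Nr4a1 and Junb were the most abundant members in BAT, with medians of 15.6, 11.8, 11.7 and 8.08 TPM over 17 libraries. Their ranges, 10.5 to 23.1, 6.77 to 27.6, 7.91 to 15.7 and 6.02 to 11 TPM, overlapped from each gene to the next in that order. Nr4a2 (median 0.95 TPM, 0.47 to 1.37) stood below all 4, and Egr1 (0.31), Atf3 (0.23), Fos (0.07) and Nr4a3 (0.05) were lower still. In WAT the order was Ier2 at 14.4 TPM, Junb at 6.11, Jun at 5.47, Nr4a1 at 1.90 and Egr1 at 1.35, followed by Atf3 and Nr4a2, both 0.54, Fos at 0.46 and Nr4a3 at 0.37. The ranges of Junb (3.03 to 22.5 TPM) and Jun (2.07 to 12.6) in WAT overlapped widely. Fosb was not in the TPM tables used here. The best-known member, Fos, was therefore among the least abundant in both depots.

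Junb, which encodes an AP-1 subunit related to JUN, was the member whose RNA rose and fell with the time of day in brown adipocytes. Its level in BAT was 15.2, 11 and 10.9 CPM in the 3 libraries at ZT1, 18.8, 12.2 and 21.7 at ZT5, and 17.7, 18.4 and 33.3 at ZT9. It was 18.7, 26.0 and 27.4 CPM at ZT13, 23.0 and 12.8 at ZT17, and 12.9, 13.1 and 8.28 at ZT21. In CPM all libraries of ZT9 and ZT13 lay above all libraries of ZT1 and ZT21. Over all 17 BAT libraries Junb ran from 8.28 to 33.3 CPM but only from 6.02 to 10.97 in the authors' TPM. A cosine of period 24 h fitted over all BAT libraries gave a peak-to-trough log2 difference of 1.15 ± 0.23 (SE), 2.22-fold, with the peak at ZT10.9 (edgeR quasi-likelihood F-test, adjusted p = 0.0133 over all genes tested). The call was kept in each of the 17 fits that left out 1 library, with adjusted p between 0.00686 and 0.0379. With time as a factor with no assumed shape the adjusted p was 0.0886, and the authors' deposited table of JTK_CYCLE tests gave p = 0.186 and q = 0.365. Other measures of the BAT libraries moved over the same hours. The share of counts on ribosomal RNA loci was 1.38%, 0.813% and 0.902% at ZT1, 1.62%, 3.65% and 3.75% at ZT9, and 2.47%, 1.86% and 3.98% at ZT13, and 1 library of ZT21 had the highest, 4.64%. The 8 adipocyte markers summed to a mean of 36580 CPM at ZT1, their lowest time, and 60491 at ZT9, their highest. With mitochondrial genes and ribosomal RNA loci left out of the counts the adjusted p of Junb was 0.0130; the part of these measures in its rhythm was not otherwise tested.

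Junb was the 1 member called of the 7 that passed the low-count filter in BAT, where 9.17% of all 12394 genes tested were called, a share too close to read the count as a result about the members. Nr4a1, an orphan nuclear receptor induced by beta-adrenergic signals in brown fat, had 22.4, 29.8 and 21.7 CPM at ZT1, 32.4, 25.6 and 56.4 at ZT5, and 49.0, 60.0 and 54.0 at ZT9. Its levels were 47.6, 39.8 and 43.6 CPM at ZT13, 48.5 and 41.6 at ZT17, and 30.8, 48.1 and 20.1 at ZT21. In CPM every library of ZT9, ZT13 and ZT17 lay above every library of ZT1, while ZT21 held both high and low libraries. Over all 17 BAT libraries Nr4a1 ran from 20.1 to 60.0 CPM and from 7.91 to 15.7 in the authors' TPM. The fitted log2 difference of 0.91 ± 0.24 with a peak at ZT11.7 did not pass in edgeR (adjusted p = 0.0543). Of the 17 edgeR fits that left out 1 library, only 2 called it. These were without the second ZT21 library (adjusted p = 0.00598) and without the third ZT5 library (0.0278). It also passed with no low-count filter (0.0114), in DESeq2 (0.0167) and in limma voom (0.00326). With time as a factor it was not called, and the authors' deposited table gave JTK_CYCLE p = 0.351 and q = 0.576.

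Nr4a2, a close relative of Nr4a1, ran from 2.28 to 5.29 CPM over the 17 BAT libraries, with all libraries of ZT13, ZT17 and ZT21 at or above 3.53 CPM. Its fitted difference was 0.67 ± 0.20 on the log2 scale with the peak at ZT17.0 and an adjusted p of 0.0812 in edgeR. It passed in limma voom (0.0283) and without the first ZT5 library (0.0393). Ier2, a short immediate early gene whose protein acts in the nucleus, ranged from 16.1 to 47.9 CPM, with a fitted difference of 0.53 ± 0.21 (adjusted p = 0.175). For Jun, the namesake AP-1 subunit, the values were 0.36 ± 0.20 and 0.383. Atf3, a stress-induced member of the ATF family that pairs with AP-1 proteins, reached 1.19 ± 0.63 (0.349) at a median of only 0.53 CPM. Egr1, a zinc finger factor, was at 0.28 ± 0.45 (0.879). Fos, Fosb and Nr4a3 had too few counts in BAT to be tested.

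**Figure D1:**
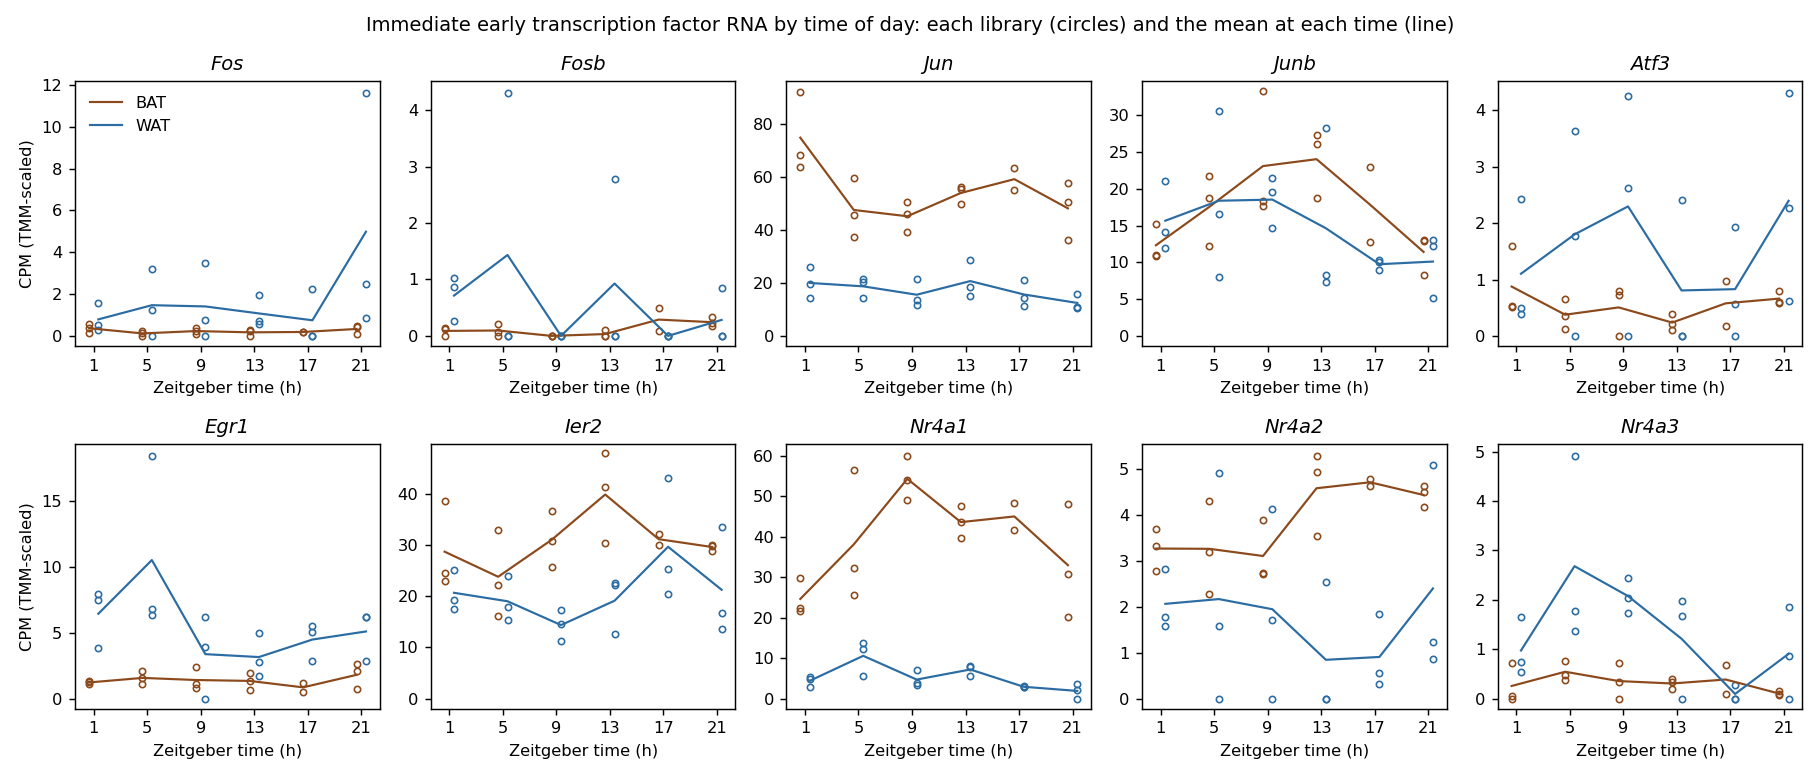
CPM of the 10 members by ZT (hours) in BAT and WAT; circles are single libraries and lines join the means of each time. In BAT, Junb is highest at ZT9 and ZT13 and Nr4a1 is lowest at ZT1, and the WAT points of most members spread widely within a time.

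In WAT, 0 of the 8 members tested were called, against 9.90% of all 12703 genes in edgeR; 2 of the 8 had an unadjusted p under 0.05, and DESeq2 and limma voom each called 1. Nr4a1 in WAT was at 4.91, 2.91 and 5.35 CPM at ZT1, 5.60, 13.8 and 12.3 at ZT5, and 3.76, 3.41 and 6.95 at ZT9. At the later times it was at 5.57, 7.86 and 8.17 CPM at ZT13, 3.07, 2.80 and 2.89 at ZT17, and 0, 2.01 and 3.68 at ZT21. All ZT5 and ZT13 libraries exceeded all ZT17 and ZT21 libraries, and the library listed at 0 allows up to 1.86 CPM (3 counts, counting error only). Its fitted difference was 1.93 ± 0.65 on the log2 scale with a peak at ZT7.61 (edgeR adjusted p = 0.116, DESeq2 0.0213, limma voom 0.331). The authors' deposited table gave JTK_CYCLE p = 0.0470 and q = 0.272.

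Junb in WAT read 14.1, 11.9 and 21 CPM at ZT1, 7.95, 30.6 and 16.6 at ZT5, and 19.6, 14.7 and 21.4 at ZT9. It read 8.35, 28.3 and 7.32 at ZT13, 10.0, 8.97 and 10.3 at ZT17, and 13.0, 5.17 and 12.2 at ZT21. Single libraries at ZT5 and ZT13 were more than 10 CPM above the others of their time, so replicates of 1 time spread as widely as the times did. The fitted difference, 1.12 ± 0.43 with the peak at ZT6.82, was of the same size as in BAT but did not pass in edgeR (adjusted p = 0.184). Nr4a3, the NR4A receptor of lowest level, had 2.84 ± 1.12 with a peak at ZT6.60 (adjusted p = 0.202; limma voom 0.0306) and was at 0, 0.28 and 0 CPM in the libraries of ZT17. Egr1 had 1.31 ± 0.61 with a peak at ZT2.68 and an edgeR adjusted p of 0.306, and the authors' deposited table gave it JTK_CYCLE p = 0.00277 and q = 0.111. The edgeR adjusted p was 0.395 for Ier2, 0.728 for Jun, 0.721 for Nr4a2 and 0.877 for Atf3.

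The difference between the depots' rhythms was tested for 6 members, and 0 of them passed in edgeR, where 12.9% of all 10999 genes did; 1 had an unadjusted p under 0.05, and DESeq2 called 1 and limma voom 0. Nr4a1 came nearest, with an adjusted p of 0.0735 (DESeq2 0.0278) and fitted peaks at ZT11.8 in BAT and ZT7.54 in WAT. It passed without the first (0.0399) or the second (0.0494) WAT library of ZT9. For Junb the fitted peaks were ZT11 and ZT6.94 and the adjusted p was 0.158, or 0.0261 without the second WAT library of ZT13. That a member's rhythm was called in BAT and not in WAT is thus not a shown difference between the depots.

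Between the depots, Nr4a1 and Jun were higher in BAT and Egr1 was higher in WAT. Of 6 members tested, 3 passed an adjusted p under 0.05 and a 2-fold difference, 2 higher in BAT and 1 in WAT, against 47.3% of all 10999 genes (23.1% higher in BAT and 24.2% higher in WAT), so the count itself is near the background. Nr4a1 was at 39.5 ± 12.9 CPM (SD, n = 17) in BAT and 5.28 ± 3.51 (n = 18) in WAT, a log2 difference of 2.73 ± 0.22 (SE), 6.62-fold (edgeR adjusted p = 9.48e-14). No overlap was seen: BAT started at 20.1 CPM, whereas WAT ended at 13.8 CPM. In bulk samples, fewer cells of a type and less RNA per cell cannot be told apart.

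Jun was at 54.5 ± 13.4 CPM in BAT (n = 17) and 17.2 ± 5.25 in WAT (n = 18), a log2 difference of 1.43 ± 0.13, 2.69-fold (edgeR adjusted p = 3.45e-12). BAT libraries ran from 36.3 to 92.1 CPM, the highest at ZT1 with 68.4, 92.1 and 63.9, and WAT libraries ran from 10.5 to 28.5 CPM. In CPM no WAT library reached the lowest BAT library of Jun. In the authors' TPM the ranges of Jun overlapped, 6.77 to 27.6 in BAT and 2.07 to 12.6 in WAT. For Jun and for Nr4a1 the CPM of the depots did not overlap at any of the 6 times. Junos, an antisense transcript, spans the accessible region just upstream of Jun's start. Its overlap with the transcribed bases of Jun was not checked, and the sources used here do not give the strand used in counting. Where the pair overlaps, reads cannot be told apart.

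Egr1 read 7.97, 3.83 and 7.51 CPM at ZT1 in WAT, 6.78, 6.35 and 18.4 at ZT5, and 6.20, 3.92 and 0 at ZT9. The later WAT values were 2.78, 4.99 and 1.69 CPM at ZT13, 5.52, 5.04 and 2.89 at ZT17, and 6.19, 2.87 and 6.23 at ZT21. BAT libraries ran from 0.54 to 2.61 CPM with a median of 1.23, and WAT exceeded BAT without overlap at 4 of the 6 times. The log2 difference, BAT minus WAT, was -2.18 ± 0.29, 4.54-fold (edgeR adjusted p = 2.32e-08). Nr4a1, Jun and Egr1 were called in each of the 35 fits that left out 1 library.

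Nr4a2 was higher in BAT by 0.91 ± 0.36 on the log2 scale (edgeR adjusted p = 0.0210), short of 2-fold. It reached 2-fold with no low-count filter (1.15), in limma voom (1.20), and without the third WAT library of ZT5, the first of ZT9 or the third of ZT21. Ier2 differed by 0.36 ± 0.14 (adjusted p = 0.0209), also short of 2-fold. Junb differed by 0.01 ± 0.19 (adjusted p = 0.952), at 17.7 ± 6.80 CPM in BAT (n = 17) and 14.5 ± 7.16 in WAT (n = 18), and its sign turned with the scaling, to -0.07 with RLE size factors.

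The remaining members had low counts and failed the main filter. With a filter set by the model terms instead, an alternative chosen after seeing the data under which 54.0% of 13429 genes were called, Fos, Atf3 and Nr4a3 were called higher in WAT. Their highest BAT libraries had only 0.58, 1.59 and 0.76 CPM, so their entry leaned on WAT, the depot in which they were called higher. These calls and their p-values are therefore a description. Fos in BAT read 0.58, 0.16 and 0.36 CPM at ZT1, 0.14, 0 and 0.22 at ZT5, and 0.11, 0.22 and 0.36 at ZT9. It read 0.22, 0.29 and 0 at ZT13, 0.20 and 0.18 at ZT17, and 0.46, 0.09 and 0.45 at ZT21. The 17 BAT libraries together held only 62 Fos counts.

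Fos in WAT read 1.59, 0.26 and 0.51 CPM at ZT1, 0, 3.18 and 1.23 at ZT5, and 0.75, 0 and 3.48 at ZT9. It read 0.70, 1.97 and 0.56 at ZT13, 0, 2.24 and 0 at ZT17, and 2.48, 0.86 and 11.6 at ZT21. The highest library was the third of ZT21, and the 4 listed at 0 allow up to 0.96 CPM. The log2 difference was -2.65 ± 0.56, 6.26-fold (edgeR adjusted p = 5.69e-05), and -2.35 without that highest library. Atf3 differed by -1.63 ± 0.49 (adjusted p = 0.00287) and Nr4a3 by -1.97 ± 0.49 (5.21e-04), each called in all 35 fits that left out 1 library. Those fits kept the filter set from all libraries, so they do not test the choice of these genes. Fosb was listed at 0 in 7 of 17 BAT and 12 of 18 WAT libraries and was called higher in WAT with no filter at all (-1.79, adjusted p = 0.0385).

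Markers of other cell types also differed between the depots. Macrophage, fibroblast and endothelial markers were higher in WAT: the 7 fibroblast genes summed to a median of 20.2 CPM in BAT (7.43 to 54.8) and 413 in WAT (119 to 883). The 6 endothelial genes summed to 6.69 and 56.5 CPM. Of the markers tested, 4 of 5 macrophage, 5 of 5 fibroblast and 3 of 3 endothelial genes were called lower in BAT. Ptprc, the leukocyte antigen CD45, had a median of 0.03 CPM in BAT and 6.23 in WAT. Markers of some other cell types went the other way, with Nr4a1 and Jun. Of 8 skeletal muscle genes, 5 were called higher and 1 lower in BAT, and they summed to a median of 203 CPM in BAT (48.2 to 1291) and 124 in WAT (16.4 to 659). The 6 Schwann cell genes summed to 672 CPM in BAT (424 to 1791) and 126 in WAT (62.9 to 1263), although 4 of the 5 tested were called lower in BAT and Sox10, which defines these cells, was at a median of 0 there. The 5 erythroid genes summed to 88.5 CPM in BAT and 267 in WAT. The part of these markers in the members' differences between depots was not tested.

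**Figure D2:**
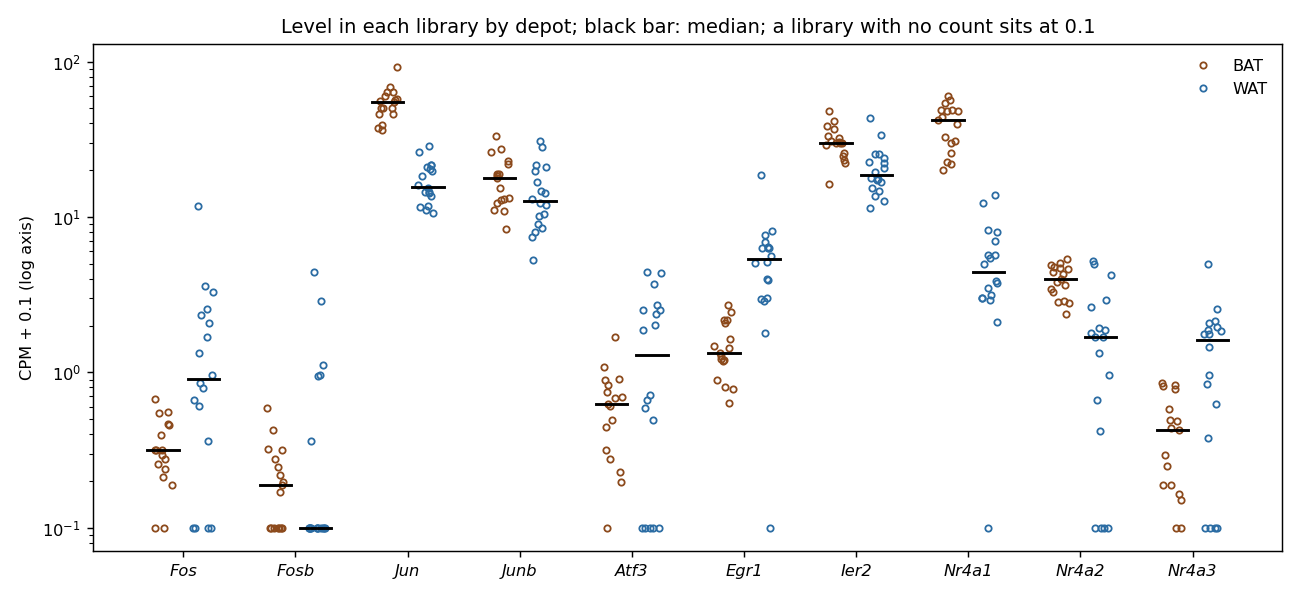
CPM of each member in BAT and WAT on a log axis (CPM + 0.1); points are libraries, bars are medians, and a library with no count sits at 0.1. Nr4a1 and Jun of BAT lie wholly above WAT, Egr1 lies mostly above in WAT, and Junb overlaps throughout.

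The wider pathway was counted from lists of related genes. These lists were also chosen with earlier results of these data known, so their counts beside all genes are a description. Among 8 tested partners of the AP-1 family in BAT, 1 was called, the small MAF protein gene Mafk, at 1.25 ± 0.25 on the log2 scale with a peak at ZT5.73 (edgeR adjusted p = 0.0157). Of 26 other immediate early genes, 8 were called in BAT, against the 9.17% of all genes, and in WAT 5 of 30, against 9.90%. Klf6, a zinc finger factor, peaked in BAT at ZT10.9, the same fitted time as Junb, with 1.39 ± 0.21 (adjusted p = 0.00209), and Mcl1, a survival protein of the BCL2 family, also peaked at ZT10.9 with 0.55 ± 0.11 (0.0138). Zfp36l1, which binds AU-rich messengers for decay, peaked at ZT0.467 with 1.82 ± 0.29 (0.00378), and Myc at ZT4.54 with 1.35 ± 0.30 (0.0248). The called genes of WAT with the smallest p were Ier5 (peak at ZT6.41), Btg1 (ZT22.6), Trib1 (ZT20.3) and Klf2 (ZT6.35). The median fitted difference of the 26 genes in BAT was 0.61 against 0.49 over all genes, and that of the 30 in WAT 1.40 against 0.98.

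Regulators upstream of the members were counted in the same way, to be read against 9.17% of all genes in BAT and 9.90% in WAT. Of 12 SRF and CREB regulators, 1 was called in each depot, Crtc1, a coactivator of CREB, in BAT (1.51 ± 0.37, edgeR adjusted p = 0.0379) and Elk3, an SRF partner, in WAT (1.48 ± 0.36, 0.0265). Of the ERK, JNK and p38 kinases, 2 of 10 were called in BAT, Rps6ka3 and Mapk14, and 1 of 11 in WAT, Map2k2. Of the EGR family and its NAB corepressors, Nab1 was called in BAT, 1 of 2 tested, with a peak at ZT11.7 and 0.53 ± 0.12 (0.0319), and 0 of 4 in WAT, where 2 had an unadjusted p under 0.05. The AP-1 partners had 0 of 10 in WAT, with 3 at an unadjusted p under 0.05. In the test of the difference between depots' rhythms, where 12.9% of all genes passed, 1 of 8 AP-1 partners passed, Jund, and 5 of 24 other immediate early genes, among them Klf6, Zfp36l1, Rhob and Trib1. Passing there were also 2 of 12 SRF and CREB regulators, Crtc3 and Elk4, and 2 of 11 kinases, Mapk9 and Map2k1. Of the EGR and NAB genes 0 of 2 passed.

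Between depots, most called genes of the lists were lower in BAT. All 4 called AP-1 partners of 8 were lower in BAT, Jdp2 by -1.99 ± 0.30, Atf7 by -1.98 ± 0.32, Maff by -1.77 ± 0.37 and Mafk by -1.38 ± 0.24 on the log2 scale. The list's median was -0.98 against 0.04 over all genes. Of 24 other immediate early genes, 3 were called higher and 8 lower in BAT, with Btg2 at -2.11 ± 0.12, Klf2 at -3.11 ± 0.20 and Klf4 at -4.11 ± 0.29. Lower in BAT were also Nab2 (-2.36 ± 0.30), 5 of 12 SRF and CREB regulators with Elk3 at -3.53 ± 0.24 and Creb1 at -1.52 ± 0.11, and 3 of 11 kinases. The background for calls in this direction was 24.2% of all genes, and the kinase count was near it. The median of the kinase list was 0.04, as over all genes, against -0.71 for SRF and CREB regulators and -0.53 for other immediate early genes. The macrophage, fibroblast and endothelial markers given above were also lower in BAT. The part of these markers was not tested.

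Library by library, after the mean of each time was taken out, the relations of Fos and of Junb with the other members were tested. Of 12 relations of Fos with the other members, depth and RNA shares in each depot, 0 passed after adjustment. The strongest was Fos with Junb in WAT, Pearson's r = 0.60 and Spearman's rho = 0.60 over 18 libraries (exact permutation within times, two-sided, p = 0.00969 for r and 0.0165 for rho, adjusted 0.116 and 0.198). Without the 2 libraries farthest in Fos, r was 0.66. It passed, at an adjusted p of 0.0478 by exact permutation, without the first or the third WAT library of ZT1. For Junb with Fosb in BAT r was 0.63 and rho 0.67 (17 libraries, exact permutation p = 0.0363 and 0.0316, adjusted 0.389 and 0.190), and for Junb with the share of ribosomal RNA loci in BAT r was 0.49 and rho 0.58 (exact permutation p = 0.0648 and 0.0205, adjusted 0.389 and 0.190). Without the 2 BAT libraries farthest in Junb, r was 0.48 with Fosb and 0.50 with that share. Fosb held only 29 counts over the 17 BAT libraries, with 0 in 7 of them. Fos held 62 counts in BAT and 117 in WAT. Relations of Fos and Fosb therefore lie near the floor of counting and could be tested only weakly. Of the 12 relations of Junb, 0 passed in either depot.

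The genes whose levels ran most like the members' mean were listed as a description, over libraries of 1 depot that share their depth and preparation. In BAT, with the mean of 7 members over 17 libraries, they were Fastk (r = 0.85), Nrtn (0.84), B4galt3 (0.84), Zfp954 (0.84) and Crip1 (0.83). In WAT, with 8 members over 18 libraries, they were Mtmr12 (0.88), Gm26533 (0.86), Gm17134 (0.85), Mthfd1l (0.85) and Rian (0.85).

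An accessible region lay within 1 kb of the start for all 10 members in BAT and for 9 in WAT, all but Nr4a1. All 60 BAT and all 32 WAT regions were tested for a rhythm of accessibility, with 16 called in BAT and 8 in WAT, against 18.9% and 15.8% of all regions. Within 1 kb of a start, 2 of 12 BAT regions and 2 of 9 WAT regions were called, at Jun and Junb in each depot, against 13.5% and 6.32% of all such regions. Of the 60 BAT regions 32 lay over a WAT region by at least 75 bp, 53.3%, and all 32 WAT regions lay over a BAT region. Jun had the most regions, 15 in BAT and 5 in WAT.

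Among regions within 1 kb of a start, the smallest adjusted p of each depot was at Junb. Its BAT region chr8:84978746-84978896 (mm10), at -73 bp from the start, had 34.0, 33.0 and 34.4 CPM (here of ATAC tags) at ZT1, 43.2, 36.5 and 42.5 at ZT5, and 38.8, 34.9 and 37.2 at ZT9. It had 36.0, 34.4 and 33.6 at ZT13, 29.7, 31.3 and 35.4 at ZT17, and 30.6, 27.5 and 27.9 at ZT21. All 3 libraries of ZT5 were above all libraries of ZT1, ZT13, ZT17 and ZT21. The fitted log2 difference was 0.40 ± 0.08 with a peak at ZT7.32 (edgeR adjusted p = 0.00463), called in all 18 fits that left out 1 library.

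In WAT the matching region chr8:84978721-84978871, at -48 bp, had 43.0, 35.9 and 36.7 tag CPM at ZT1, 44.7, 43.0 and 43.4 at ZT5, and 39.1, 42.8 and 45.1 at ZT9. It had 39.4, 38.3 and 48.2 at ZT13, 30.9, 22.2 and 31.7 at ZT17, and 32.5, 31.2 and 34.0 at ZT21. Every library of ZT1 to ZT13 exceeded every library of ZT17 and ZT21. The fitted difference was 0.56 ± 0.12 with a peak at ZT7.11 (edgeR adjusted p = 0.00648), again called in all 18 fits. Both regions lie over the upstream bases of Junb printed above.

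**Figure D3:**
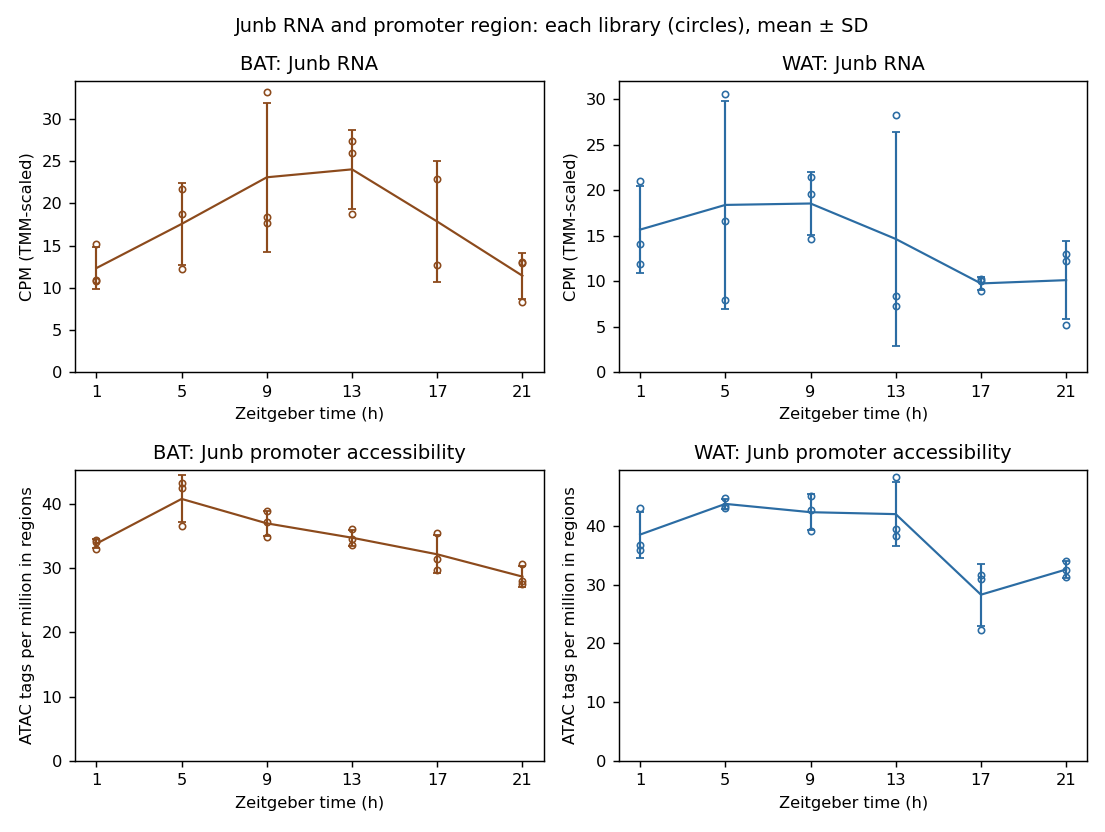
Junb RNA (CPM) and accessibility of its promoter region (tag CPM) by ZT in hours, mean ± SD of the libraries at each time, with axes from 0. Accessibility is lowest at ZT17 and ZT21 in both depots, and RNA in BAT is highest at ZT9 and ZT13.

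Junb had further called regions. At -1431 bp in BAT the difference was 0.54 ± 0.14 with a peak at ZT13.1 (edgeR adjusted p = 0.0313), lost without the third library of ZT1, the first of ZT5, or the second or the third of ZT13, with adjusted p up to 0.0735. Past the end of the gene, the region at 2093 bp in BAT gave 0.24 ± 0.06 at ZT5.50 (0.0264), called in 15 of 18 fits, and the region at 2109 bp in WAT gave 0.41 ± 0.11 at ZT2.99 (0.0302), called in 13 of 18. Thus 3 of 3 Junb regions in BAT and 2 of 2 in WAT were called, against 18.9% and 15.8% of all regions. Only the promoter region of each depot was called in all 18 fits.

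Jun had 6 of 15 regions called in BAT, against 18.9% of all BAT regions. Of these, 5 lay far upstream of the gene and were called in all 18 fits. The region chr4:95213126-95213276, at -160979 bp, rose from 19.5 ± 0.54 tag CPM at ZT5 (SD, n = 3) to 42.8 ± 2.95 at ZT13, with a fitted difference of 0.90 ± 0.14 and a peak at ZT14.3 (edgeR adjusted p = 0.00100). The region chr4:95141419-95141569, at -89272 bp, ran from 9.55 ± 1.32 at ZT21 to 22.5 ± 3.10 at ZT9 (n = 3), with 0.93 ± 0.20 at ZT9.54 (0.00874). The other distal regions, at -226647, -156751 and -43287 bp, peaked at ZT8.87, ZT14.6 and ZT11.9. These regions are assigned to Jun as the nearest start only.

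At the Jun promoter the changes were small. The BAT region at -150 bp, between 64.8 and 84.7 tag CPM in all libraries, gave 0.21 ± 0.06 with a peak at ZT4.71 (edgeR adjusted p = 0.0321) and was lost without the first or the third library of ZT5 or the second or the third of ZT17, and with time as a factor (0.0748). The WAT region at -149 bp gave 0.22 ± 0.06 at ZT23.1 (0.0468), was called in only 2 of 18 fits and was lost with RLE size factors (0.0536) and with time as a factor (0.201). A Jun region at 14013 bp in WAT gave 0.52 ± 0.14 at ZT12.8 (0.0280), lost without the first or second library of ZT13 and with time as a factor (0.0527).

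For Nr4a1, the region chr15:101253994-101254144 in BAT, at -12777 bp from the start used by the authors and inside the RefSeq span of the gene, was most accessible from ZT5 to ZT17. Tag CPM values were 11.7, 10.1 and 10.8 at ZT1, 19.8, 14.7 and 18.7 at ZT5, and 15.3, 19.5 and 21 at ZT9. They were 19.96, 20.7 and 20.8 at ZT13, 16.7, 22.6 and 18.6 at ZT17, and 13.4, 13.4 and 14.2 at ZT21. No library of ZT1 or ZT21 reached the lowest library of any other time. The fitted difference was 0.78 ± 0.15 with a peak at ZT12.2 (edgeR adjusted p = 0.00374), called in all 18 fits, beside the RNA peak at ZT11.7. The region at -62 bp gave 0.38 ± 0.12 (0.0775) and passed with time as a factor (3.88e-04) or without the third library of ZT17 (0.0305). In WAT a region at -20366 bp gave 0.25 ± 0.07 at ZT23.0 (0.0475), called in 5 of 18 fits and lost with RLE size factors (0.0521) and with time as a factor (0.167).

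The largest changes near Ier2 were at a region within an intron of Cacna1a, a calcium channel gene, so its assignment to Ier2 rests on distance alone. In BAT, at 27726 bp, it had 88.3, 82.7 and 69.8 tag CPM at ZT1, 26.9, 33.0 and 26.7 at ZT5, and between 34.3 and 52.7 at all later times. In WAT, at 27793 bp, it had 94.9, 61.4 and 69.4 at ZT1, 28.7, 25.7 and 23.0 at ZT5, and between 24.1 and 56.4 later. In both depots ZT1 lay above every other library. The fitted differences were 0.88 ± 0.23 in BAT (peak ZT23.1, edgeR adjusted p = 0.0277) and 0.96 ± 0.25 in WAT (ZT21.9, 0.0246). The call was lost in BAT without any 1 of the 3 libraries of ZT1, and in WAT without the first of ZT9. With time as a factor the adjusted p was 6.63e-07 in BAT and 6.04e-05 in WAT. Ier2's other called region, at 23248 bp in BAT within an exon of Cacna1a, gave 0.24 ± 0.07 (0.0326) and was lost without the first library of ZT1, the first of ZT5, the third of ZT13, or the second or the third of ZT17.

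A region at 8755 bp beyond Fosb was called in both depots, with 0.80 ± 0.18 and a peak at ZT17.6 in WAT (edgeR adjusted p = 0.0109, all 18 fits, but 0.0558 with time as a factor) and 0.58 ± 0.17 at ZT19.8 in BAT (0.0418, 8 of 18 fits). It was highest at ZT17 in both, at 30.5 ± 5.54 tag CPM in WAT and 23.1 ± 2.29 in BAT (SD, n = 3). Other called regions were Fosb at 1361 bp in BAT (0.22 ± 0.06, adjusted p = 0.0444, 5 of 18 fits) and Nr4a3 at -1930 bp in BAT (0.23 ± 0.06, 0.0330, 13 of 18). With time as a factor both were lost, at 0.101 and 0.0792. Egr1 at 32043 bp in BAT gave 0.69 ± 0.18 with a peak at ZT23.2 (0.0291, 13 of 18 fits). Fos at -18426 bp in WAT gave 0.40 ± 0.11 with a peak at ZT1.84 (0.0350, 11 of 18). The calls held in 13 of 18 fits were lost without the first or the third library of ZT5, the first of ZT13, or the second or the third of ZT17 for Nr4a3, and without the first or the third of ZT13 or any 1 of ZT21 for Egr1.

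The regions nearest the starts of the other members were not called in either depot. In BAT the fitted differences were 0.11 ± 0.10 at -310 bp from Fos (edgeR adjusted p = 0.663), 0.17 ± 0.08 at -331 bp from Fosb (0.244), 0.12 ± 0.05 at -370 bp from Egr1 (0.209), 0.11 ± 0.06 at -157 bp from Atf3 (0.416) and 0.19 ± 0.07 at -42 bp from Ier2 (0.137). The region at -565 bp from Nr4a3 gave 0.25 ± 0.08 (0.0875) and passed with time as a factor (0.0115). Nr4a2 gave 0.14 ± 0.11 at -156 bp (0.576), and 0.22 ± 0.23 at 44 bp from another of its starts (0.724), which passed with time as a factor (0.0111). In WAT the corresponding adjusted p-values were 0.823 for Fos, 0.667 for Fosb, 0.158 for Egr1, 0.784 for Atf3, 0.734 for Ier2, 0.621 for Nr4a3 and, at -172 bp, 0.645 for Nr4a2.

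**Figure D4:**
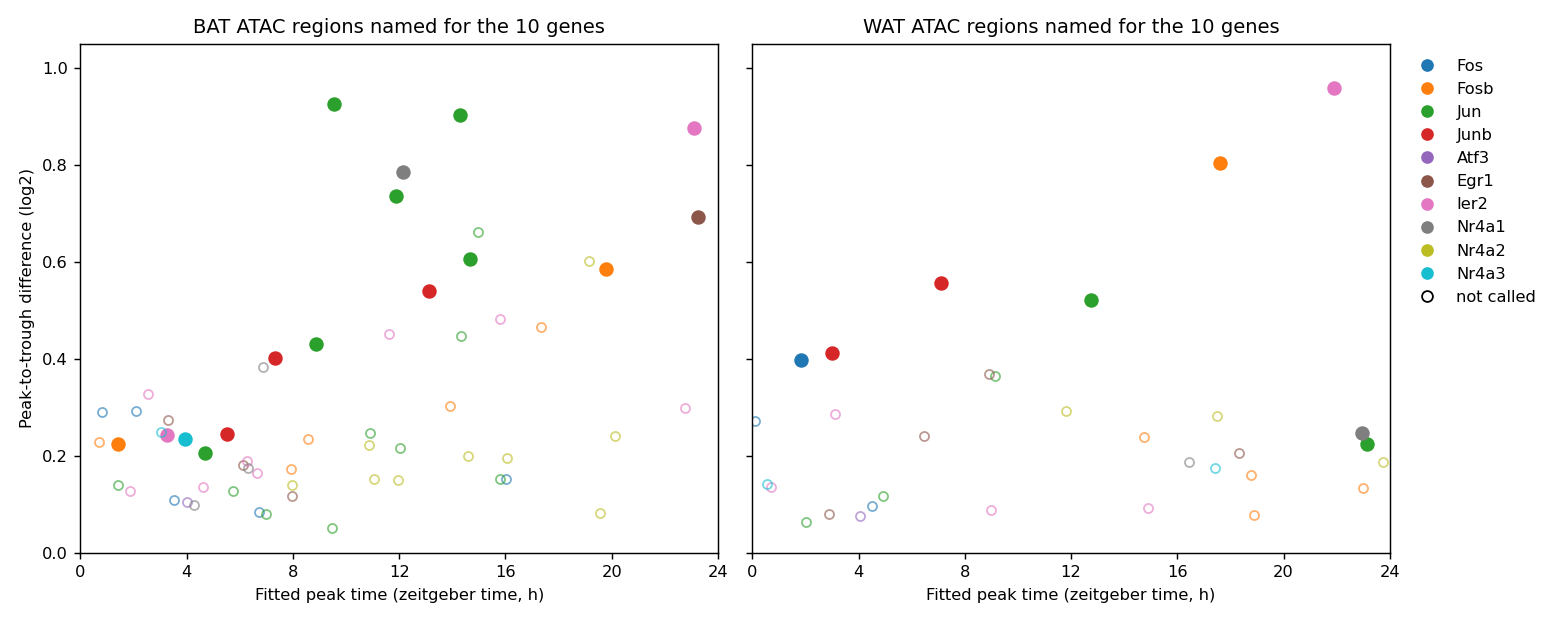
Peak-to-trough log2 difference of accessibility against the fitted peak time (ZT, hours) for every region of the members, by depot; filled points are called. The largest called differences are those of the Ier2 intron region, 0.96 in WAT and 0.88 in BAT, and of the Jun regions at -89272 bp, 0.93, and at -160979 bp, 0.90, in BAT, and the Junb promoter regions of both depots sit near ZT7.

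BMAL1 regions at ZT4 were named for 9 of the 10 members, all but Jun, against 50.3% of the genes tested in WAT, and lay within 1 kb of the start for 5 of the 10, Atf3, Fosb, Junb, Nr4a1 and Nr4a2, against 41.3%. The strongest was at Junb, chr8:84978736-84978948 (mm10), at -94 bp, with a peak score of 22.8 given by the authors, rank 142 of 10368. Signal there was 24.68 and 20.85 tags in the 2 libraries, each scaled to 10000000 total tags. The region covers the Junb accessible region of BAT by 150 bp and that of WAT by 135 bp, and it overlaps the printed upstream bases, which hold no CACGTG.

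Next were Fos at -18620 bp, with score 13.2 and signals of 12.69 and 14.02, and Atf3 at -149 bp, with score 11.8, rank 871 and signals of 9.26 and 14.02. Ier2 at 23239 bp scored 10.8, Fosb at 1294 bp 10.6 and Nr4a3 at -1947 bp 9.07. Each of these 3 lay over an accessible region of BAT that was called rhythmic (18.9% of all BAT regions were), with the Fosb call held in 5 of 18 fits. The matching regions of WAT, the depot of the ChIP, were not called, with edgeR adjusted p of 0.0617 for Ier2, 0.511 for Fosb and 0.281 for Nr4a3. Nr4a1 at -20334 bp scored 7.87, Egr1 at 26245 bp 4.62 and Nr4a2 at 526 bp 4.45. Fosb at 8835 bp, with score 5.99, lay over the region at 8755 bp that was called in both depots. In WAT that call held in all 18 fits. The Nr4a1 region at -20334 bp lay over the WAT region at -20366 bp, called in 5 of 18 fits. Among all WAT regions 15.8% were called. A weak Fos region at 50137 bp, score 4.28, rested mostly on 1 library, with signals of 1.71 and 6.84. Over all 18 regions, 11 lay over a BAT accessible region and 11 over a WAT region, against 59.8% and 55.9% of all BMAL1 regions. Within 1 kb of a start were 5 of the 18, against 57.8% of all. With 2 libraries of 1 group, these values carry no test.

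**Figure D5:**
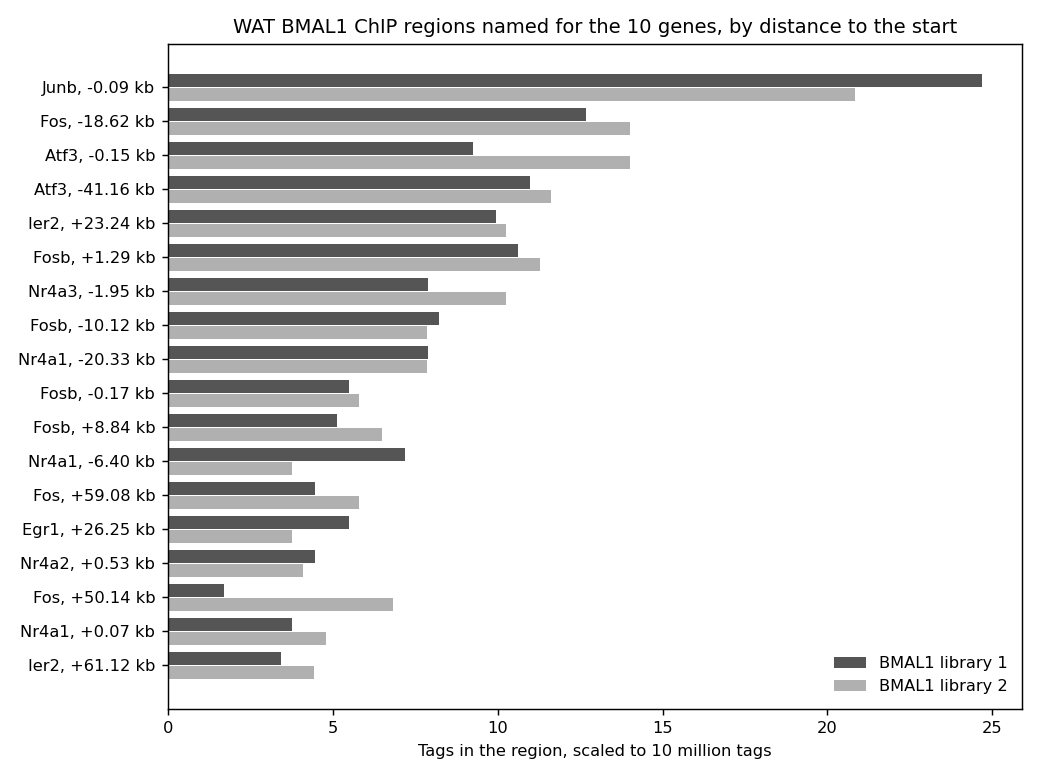
BMAL1 ChIP signal (tags, scaled to 10000000 total tags) at each region named for a member, with 1 bar per library, at ZT4 in inguinal white fat. The Junb promoter region is the highest in both libraries, and Jun has no region.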

How the data were processed

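RNA-seq, ATAC-seq and BMAL1 ChIP-seq of mouse fat were analysed from the deposited tables. The authors deposited RNA as an expected count per gene (estimated counts), with RSEM 1.3.0 and STAR 2.7.5 named in the submitters' processing notes, without roles. They also deposited TPM with JTK_CYCLE p-values and q-values, ATAC tag counts per peak on mm10, and BMAL1 peaks with a score and signal per library, annotated with HOMER per the file headers. The roles of Bowtie2 2.4.1, DESeq2 and limma, also in those notes, and the counting strand were not given in the sources used here. The depth behind each value is the total count of its library, and intervals and limits from a count of 0 cover counting error only.

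RNA counts were rounded to whole numbers, scaled by TMM and fitted with edgeR 4.0.16 in R 4.3.3 (quasi-likelihood), with Benjamini-Hochberg adjustment over all features tested and calls at adjusted p under 0.05. filterByExpr was set by time group for rhythms and by depot otherwise. Rhythm was a joint test of cosine and sine of 24 h; the depot test kept time as a factor and asked for at least 2-fold; differences are BAT minus WAT. Correlations used log2 CPM with a prior count of 2. Alternatives were RLE scaling, no low-count filter, DESeq2 1.42.0, limma 3.58.1 voom with sample quality weights, time as a factor, a replicate block, dropping mitochondrial and ribosomal RNA genes, dropping the 3 WAT libraries richest in ribosomal RNA, and dropping each library; a filter set by the model terms and Junb as a reference for correlations were added after seeing the data. The scripts were tested on simulated data. No 2 RNA libraries of the same group agreed within sampling noise, and other pairs of libraries were not compared in this way. 1 column of no listed sample was not used.

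All 10 members are described. Other genes were named by rule: per list and comparison the called genes of smallest p, up to 4, and per depot the 5 genes most correlated with the members' mean. The members and lists were chosen with earlier results of these data known.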

Additional observations from a re-analysis of the deposited data

How the results depend on the processing

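The WAT RNA libraries had the lower median count, and 3 of them stood out by their share of ribosomal RNA loci. Without those 3, members called stayed at 0 for the WAT rhythm, 3 between depots and 0 for the difference of rhythms. Members called rhythmic in BAT were 1, against 2 with no low-count filter, 2 in DESeq2, 3 in limma voom and 0 with time as a factor; all genes called were 1136, against 1754, 2465, 4063 and 617. In WAT members called were 0, against 1 in DESeq2 and 1 in limma voom; all genes called were 1257, against 3046 with no filter, 2106 in DESeq2, 3182 in limma voom and 2675 without those 3 libraries. Between depots, members called were 3, against 8 with no filter and 7 with the filter set by the model terms, chosen after seeing the data; all genes called were 5204, against 11706 with no filter. For the difference of rhythms, members called were 0, against 1 in DESeq2, and all genes called were 1418, against 2156 with no filter, 2690 in DESeq2, 3456 in limma voom and 3632 without the 3 libraries. With time as a factor, all BAT regions called went from 8053 to 14063 and member regions in WAT from 8 to 4. The depot difference of Junb, 0.01, was -0.0710 with RLE, -0.0685 in DESeq2, -0.12 in limma voom and -0.00124 without the 3 libraries. The cause of these changes was not tested, beyond the number of genes tested with no filter.

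Leaving out each library, all genes called in BAT ranged from 460 (without the second library of ZT1) to 3379 (without the second of ZT21), with 1 to 2 members; 2 were called without the first or the third library of ZT5 or the second of ZT21. In WAT all called ranged from 474 (without the third of ZT21) to 2545 (without the third of ZT9), with 0 to 0 members. For the depot difference, all called ranged from 5138 to 5251, members from 3 to 4, and Junb from -0.0697 to 0.123. For the difference of rhythms, all called ranged from 569 (without the third BAT library of ZT9) to 3019 (without the third WAT library of ZT9), with 0 to 1 members. BAT regions called ranged from 6105 to 8236 and member regions from 10 (without the second library of ZT17) to 17. WAT regions ranged from 3240 to 4068 and member regions from 4 to 9: 5 without the second or the third library of ZT1, the first of ZT5 or the first of ZT9, and 4 without the first or second of ZT13 or the second of ZT17. Relations of Fos or Junb called were 0 to 0 in BAT and 0 to 1 in WAT.

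Libraries of equal replicate number share only a number: the median correlations of their deviations were 0.07, -0.04 and 0.13 in BAT RNA and 0.00, 0.09 and 0.05 in WAT RNA. A replicate block called 812 genes and 1 member in BAT, 1348 and 0 in WAT, 5200 and 3 between depots, 1311 and 0 for the difference of rhythms, 7412 regions and 17 of members in BAT, and 3953 and 8 in WAT.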

Other observations

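Heat shock genes, which encode chaperones induced by stress and by handling of tissue, were counted as a further list, chosen with earlier results of these data known. In BAT 4 of 12 tested were called rhythmic, against 9.17% of all genes: Hspb1 with 1.69 ± 0.31 on the log2 scale and a peak at ZT6.16 (edgeR adjusted p = 0.00831), Dnajb1 with 1.15 ± 0.21 at ZT23.6 (0.00877), Dnaja1 with 1.39 ± 0.32 at ZT0.422 (0.0297) and Hsph1 with 2.84 ± 0.72 at ZT1.09 (0.0441). In WAT 3 of 11 were called, Dnaja1 with 1.35 ± 0.24 at ZT21.2 (0.00476), Bag3 with 1.55 ± 0.31 at ZT19.2 (0.00977) and Hspe1 with 1.59 ± 0.38 at ZT19.2 (0.0274). The list's median difference was 1.23 in BAT against 0.49 over all genes, and 1.12 in WAT against 0.98. Between depots 4 of 11 were higher in BAT, with Hspd1 at 2.22 ± 0.12, and Hsp90aa1 was lower at -3.32 ± 0.28.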
